A study of Mus musculus with 9 samples.

Results

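Of the 49585 genes counted in 9 mouse breast tumours, 10 that build or direct blood vessel endothelium are described here. They were chosen by symbol, and each matched 1 row of the count table. These genes and the lists read beside them were chosen with earlier results of these data known. Counts and medians over them are therefore descriptions and no test of the lists. Cdh5, Pecam1 and Cldn5 are junction genes, Erg is a transcription factor, Kdr, Flt1, Tek and Tie1 are receptors, and Vegfa and Angpt2 are ligands. The tumours were spontaneous breast adenocarcinomas that received adeno-associated virus (AAV), a gene-carrying vector, on days 0, 3 and 8. They were collected when the mouse met euthanasia criteria. AAV-∆mut-p53 tumours (n = 6) received the vector meant to delete mutant p53, and AAV-Control tumours (n = 3) received a control vector. All mice of both groups carried K14-Cre, a Cre recombinase driven by the keratin 14 promoter of basal epithelium. Both groups also shared the Trp53 genotype labelled wm-R172H/fl and a Rosa26 allele labelled LSL CAS9-P2A-EGFP/+, which Cre switches on to make Cas9. Endothelium lies outside the keratin 14 compartment, and the labels do not say which cells the vector reached. The labels used here state no ages.

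Vessels in a tumour are lined by endothelial cells held together by VE-cadherin (Cdh5), PECAM-1 and claudin-5, and the ETS-family factor ERG maintains the genes of these cells. Tumour and stromal cells release VEGF-A, which acts on endothelium through VEGFR2 (Kdr), while VEGFR1 (Flt1) binds the same ligand and can act as a decoy. A further ligand and receptor system sets vessel stability. ANGPT1 from perivascular cells activates TIE2 (Tek), ANGPT2 stored in endothelium can block it, and TIE1 modulates it. RNA came from whole tumours, so fewer endothelial cells and less RNA per endothelial cell cannot be told apart in any value that follows.

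Promoters of 4 members are shown, those of a junction gene (Cldn5), of a TIE receptor (Tie1) and of the VEGF receptor genes (Kdr and Flt1), whose levels are given below. Each is the 250 bases before the RefSeq transcription start on the gene's own strand, 5′ to 3′, on GRCm38.p6. Gene positions given further on are GENCODE's, whose Tie1 begins upstream of the RefSeq start, so most of the Tie1 window lies inside the GENCODE gene, as do a few bases of the Kdr window. Capitals mark GGAA or its reverse complement TTCC, the core letters recognised by ETS factors such as ERG. The windows are chr16:18776597-18776846 (plus strand) for Cldn5, chr4:118489850-118490099 (minus strand) for Tie1, chr5:75978456-75978705 (minus strand) for Kdr and chr5:147726012-147726261 (minus strand) for Flt1.
Cldn5: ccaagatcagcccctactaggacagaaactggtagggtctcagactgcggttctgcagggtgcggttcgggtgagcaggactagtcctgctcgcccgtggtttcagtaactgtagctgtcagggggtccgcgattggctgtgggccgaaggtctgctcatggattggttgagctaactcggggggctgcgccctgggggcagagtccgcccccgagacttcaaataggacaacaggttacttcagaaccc
Tie1: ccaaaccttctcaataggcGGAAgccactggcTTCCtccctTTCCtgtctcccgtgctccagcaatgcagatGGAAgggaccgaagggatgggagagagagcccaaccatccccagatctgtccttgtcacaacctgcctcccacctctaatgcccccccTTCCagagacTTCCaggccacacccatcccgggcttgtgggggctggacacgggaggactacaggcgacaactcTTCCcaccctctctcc
Kdr: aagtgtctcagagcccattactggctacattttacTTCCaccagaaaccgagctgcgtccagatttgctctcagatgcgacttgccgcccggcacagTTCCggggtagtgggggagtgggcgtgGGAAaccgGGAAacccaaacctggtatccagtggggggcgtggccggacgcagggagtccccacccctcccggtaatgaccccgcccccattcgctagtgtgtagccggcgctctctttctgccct
Flt1: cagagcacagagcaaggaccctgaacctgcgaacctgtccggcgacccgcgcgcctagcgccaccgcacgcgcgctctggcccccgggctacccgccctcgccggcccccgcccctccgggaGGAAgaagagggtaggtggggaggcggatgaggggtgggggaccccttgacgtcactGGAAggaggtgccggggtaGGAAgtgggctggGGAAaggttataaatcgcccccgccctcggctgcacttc
The Tie1 window held 7 matches on both strands together, Kdr and Flt1 held 4 each, and Cldn5 held 0. Of the 32851 windows of this length in the table, 93.4% held at least 1 match, and the median window held 3. A longer ETS string, CCGGAAG on either strand, was in none of these 4 windows and in 6.91% of all windows. The table held windows for 7 of the 10 members. Cdh5, Pecam1 and Angpt2 had none there. The windows not printed held 2 GGAA or TTCC matches for Tek and 2 and 6 for Vegfa, and those of Erg are given below.

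The deposited counts summed to between 18581545 and 24567423 in AAV-∆mut-p53 tumours and between 26280250 and 30953250 in AAV-Control tumours. Levels below are in CPM, the count scaled by library size with TMM factors. Trp53, the targeted gene, was 32.4 ± 11.9 CPM (SD, n = 6) in AAV-∆mut-p53 tumours and 43.4 ± 4.71 CPM (SD, n = 3) in AAV-Control tumours (edgeR FDR = 0.78). AAV-∆mut-p53 number 2 stood apart in tissue make-up. Ttn, the muscle gene for titin, was at 25443 CPM there and between 15.1 and 203 CPM in the other tumours. Its 6 epithelial marker genes summed to 181 CPM, against at least 1303 CPM in each other tumour, and its 8 leukocyte genes summed to 2354 CPM, against at most 876 CPM. The titles of numbers 4 and 5 share an animal-like number, so these tumours may come from 1 mouse. Nothing else in the labels says whether tumours came from separate animals, and p-values measure the spread between these samples.

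Of the 10 members, 7 had a lower mean in AAV-∆mut-p53 tumours and 3 a higher one, while 44.4% of all tested genes had a fitted change below 0. None of the 10 passed edgeR's quasi-likelihood test at a Benjamini-Hochberg false discovery rate (FDR) of 0.05, and among all 19606 tested genes 0 passed (0.0%). At an unadjusted p below 0.05, 4 members were lower (Cdh5, Pecam1, Cldn5 and Erg) and 0 were higher, and that count was 2 without AAV-Control 1. Over all tested genes the share was 3.26% lower and 3.82% higher, 7.07% in all. DESeq2 and limma voom also called 0 members at this FDR, with 4 and 5 at an unadjusted p below 0.05, a mark that 10.2% and 10.4% of all genes met. Over all genes DESeq2 called 104 (0.553%) and voom 0 (0.0%). The median log2 fold change of the 8 endothelial members, Vegfa and Angpt2 left out, was -0.99, beside 0.09 for all tested genes. It was -0.66 without AAV-Control 1. On simulated counts with the spread of these tumours, genes drawn at random from all tested genes were changed. At this FDR edgeR called 1 of 50 genes changed by 1 on the log2 scale and 7 of 50 changed by 2. It called 19 of 50 changed by 3 and 27 of 50 changed by 4. At an unadjusted p below 0.05 it called 18 of 50 changed by 1 and 38 of 50 changed by 2. These rates are not those of the members themselves.

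**Figure D1:**
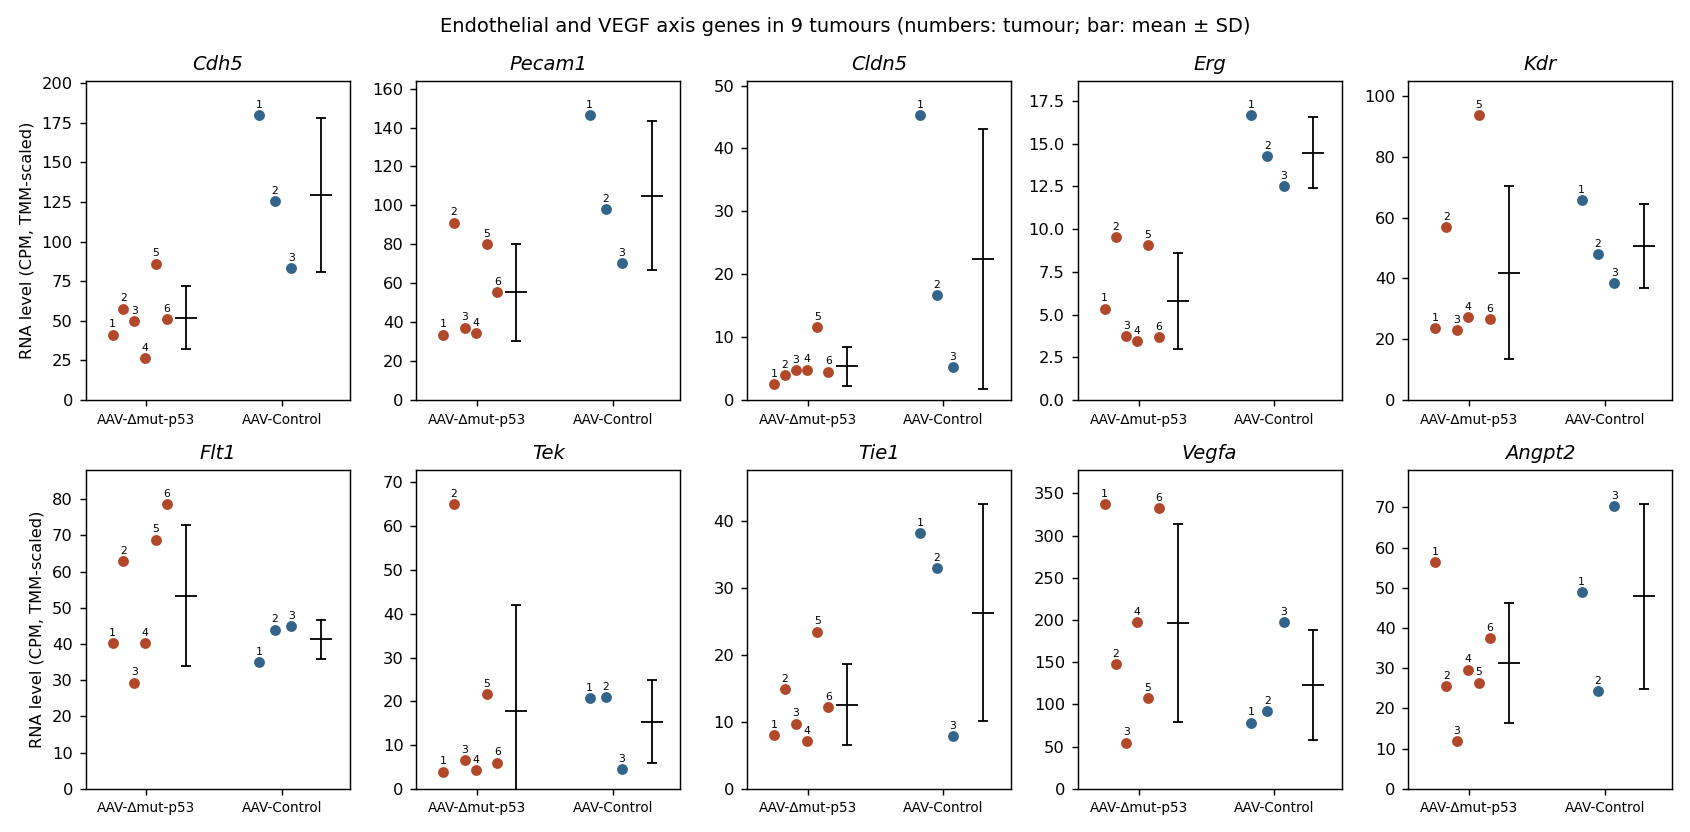
RNA level of each member in CPM (linear axes from 0) in 6 AAV-∆mut-p53 tumours (left, red) and 3 AAV-Control tumours (right, blue). Points are tumours with their numbers, and bars are mean ± SD, cut at 0 for Tek. Erg is the member whose groups do not overlap, and Tek in AAV-∆mut-p53 number 2 (65.1 CPM) lies far above the other tumours.

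Among the junction genes, Cdh5 (ENSMUSG00000031871.9, chromosome 8, 104101625 to 104144511, GRCm38) encodes VE-cadherin, the adhesion molecule of endothelial adherens junctions. In AAV-∆mut-p53 tumours it was 26.4 CPM at the lowest, 50.5 at the median and 86.1 at the highest, against 180, 126 and 83.1 CPM in AAV-Control 1, 2 and 3. All AAV-∆mut-p53 tumours but number 5 lay below the lowest control. By edgeR the difference was -1.31 on the log2 scale (SE 0.37; 95% confidence interval -2.12 to -0.51; FDR = 0.677). Its unadjusted p was 0.00449, and exact permutation of the tumours over 84 assignments, 2-sided, gave p = 0.0238 where 0.0119 is the smallest possible. An antisense gene model, Gm29682, overlaps Cdh5 and had at most 5 counts in any tumour.

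Pecam1 (chromosome 11, 106654217 to 106750628) encodes CD31, which platelets and some leukocytes carry besides endothelium. It was 33.7 CPM at the lowest, 46.3 at the median and 91.2 at the highest in AAV-∆mut-p53 tumours, against 146, 98.2 and 70.6 CPM in AAV-Control 1 to 3. Numbers 2 and 5, at 91.2 and 80.3 CPM, lay within the control range and the other 4 below it. This made a log2 fold change of -0.92 (SE 0.40; unadjusted p = 0.0408, edgeR FDR = 0.677; exact permutation p = 0.0714). Number 2, the highest of its group for Pecam1, was also highest for the leukocyte genes (2354 CPM summed). The 6 platelet genes summed to 49.9 CPM there, against at most 15.3 CPM elsewhere, but Pf4 alone made 44.1 CPM of that sum. None of the other platelet genes was highest in number 2. Itga2b, for example, was 3.51 CPM there and 5.42 CPM in number 6. The log2 fold change of Pecam1 was -1.12 without number 2 and -0.62 without AAV-Control 1.

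Cldn5 (chromosome 16, 18776847 to 18778262) encodes the main claudin of endothelial tight junctions, and its promoter is printed above. Its level was 2.52 CPM at the lowest, 4.63 at the median and 11.6 at the highest in AAV-∆mut-p53 tumours. AAV-Control 1, 2 and 3 held 45.3, 16.7 and 5.19 CPM, a wide spread in which number 3 lay among the AAV-∆mut-p53 tumours. Cldn5 thus had a log2 fold change of -2.06 (SE 0.63; unadjusted p = 0.00751, edgeR FDR = 0.677; exact permutation p = 0.0238). It was -1.04 without AAV-Control 1, so that tumour alone moved the value by nearly 1 on the log2 scale.

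Erg (ENSMUSG00000040732.18, chromosome 16, 95359169 to 95586593) encodes the ETS factor that keeps endothelial junction genes switched on. It was the 1 member whose groups did not overlap. AAV-∆mut-p53 tumours held 5.35, 9.52, 3.76, 3.46, 9.07 and 3.67 CPM in numbers 1 to 6, and AAV-Control tumours held 16.7, 14.2 and 12.5 CPM. Every AAV-∆mut-p53 tumour lay below every control, which was so for 1.59% of all tested genes. The counts behind these values ran from 62 to 206 in AAV-∆mut-p53 tumours and from 316 to 474 in AAV-Control tumours. For Erg the log2 fold change was -1.32 (SE 0.44; unadjusted p = 0.0128, edgeR FDR = 0.677; exact permutation p = 0.0238), and between -1.51 and -1.19 with any 1 tumour left out. RefSeq gave 3 start sites for Erg, whose windows of 250 bases held 2, 4 and 0 GGAA or TTCC matches.

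Among the VEGF receptor genes, Kdr (chromosome 5, 75932827 to 75978458), the main signalling receptor for VEGF-A, was 23.1 CPM at the lowest, 27.0 at the median and 93.7 at the highest in AAV-∆mut-p53 tumours, and 65.7, 48.0 and 38.5 CPM in AAV-Control 1 to 3. Numbers 1, 3, 4 and 6 lay below every control, number 2 within the control range and number 5 above it. For Kdr the fitted log2 difference was -0.28, with an interval (95%) of -1.36 to 0.80 (edgeR FDR = 0.897). It ran from -0.68 without number 5 to -0.054 without AAV-Control 1.

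Flt1 (chromosome 5, 147561604 to 147726011), the receptor gene that also yields a soluble decoy form, had a higher mean in AAV-∆mut-p53 tumours. They held 29.3 CPM at the lowest, 51.6 at the median and 78.7 at the highest, against 35.1, 44.0 and 44.9 CPM in AAV-Control 1 to 3. Numbers 2, 5 and 6 lay above every control, number 3 below every control, and numbers 1 and 4 between them. For Flt1 the fitted log2 difference was 0.37, with an interval of -0.40 to 1.14 (edgeR FDR = 0.797), and between 0.23 (number 6) and 0.49 (number 3) with 1 tumour left out. Counts per gene do not separate the soluble from the membrane form.

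Tek (chromosome 4, 94739289 to 94874976), the receptor for angiopoietins, was 3.91, 65.1, 6.55, 4.24, 21.6 and 5.99 CPM in AAV-∆mut-p53 numbers 1 to 6, and 20.7, 20.9 and 4.44 CPM in AAV-Control 1 to 3. The tumours fell into a low and a high set that cut across the groups, with AAV-Control 3 beside numbers 1, 3, 4 and 6. With all tumours the log2 fold change of Tek was 0.22, with an interval of -1.89 to 2.33 (edgeR FDR = 0.961), and -0.86 without number 2, the tumour with the high Ttn level. It was -0.23 without AAV-Control 3. Limma voom with sample quality weights also gave a negative value, -0.93.

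Tie1 (chromosome 4, 118471191 to 118490061), the partner of TIE2 with no firmly established ligand of its own, was 7.14 CPM at the lowest, 10.95 at the median and 23.5 at the highest in AAV-∆mut-p53 tumours. AAV-Control 1 and 2 held 38.2 and 32.9 CPM, above all AAV-∆mut-p53 tumours, while AAV-Control 3 held 7.84 CPM, above only number 4 of them. Tie1 had a log2 fold change of -1.07 (SE 0.52; edgeR FDR = 0.677; exact permutation p = 0.19). Leaving out AAV-Control 3 gave -1.51, and leaving out AAV-Control 1 gave -0.70.

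Of the ligands, Vegfa (chromosome 17, 46016993 to 46032369), the hypoxia-induced growth factor for endothelium, had the highest mean of the 10 members in AAV-∆mut-p53 tumours. It was 54.8 CPM at the lowest, 172 at the median and 338 at the highest there, against 78.3, 92.5 and 198 CPM in AAV-Control 1 to 3. Numbers 1 and 6, at 338 and 333 CPM, lay above every control and number 3 below every control. Vegfa had a log2 fold change of 0.68, with an interval of -0.59 to 1.94 (edgeR FDR = 0.77). Without AAV-Control 3 this became 1.19, and 0.43 when AAV-Control 1 was left out.

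Angpt2 (chromosome 8, 18690263 to 18741562), the TIE2 ligand that activated endothelium releases, was 11.9 CPM at the lowest, 28.03 at the median and 56.5 at the highest in AAV-∆mut-p53 tumours, and 49.0, 24.3 and 70.3 CPM in AAV-Control 1 to 3. The groups overlapped, and the fitted log2 difference was -0.61, with an interval of -1.63 to 0.40 (edgeR FDR = 0.737). With 1 control left out it was -0.24 (number 3) or -0.92 (number 2). Angpt2 lies within Mcph1 on the opposite strand, and the strand setting of the counting is not given, so reads of the pair may be mixed. Mcph1 had 3283 counts in AAV-∆mut-p53 number 1, the highest of that group for Angpt2, and between 472 and 1315 in the other tumours.

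**Figure D2:**
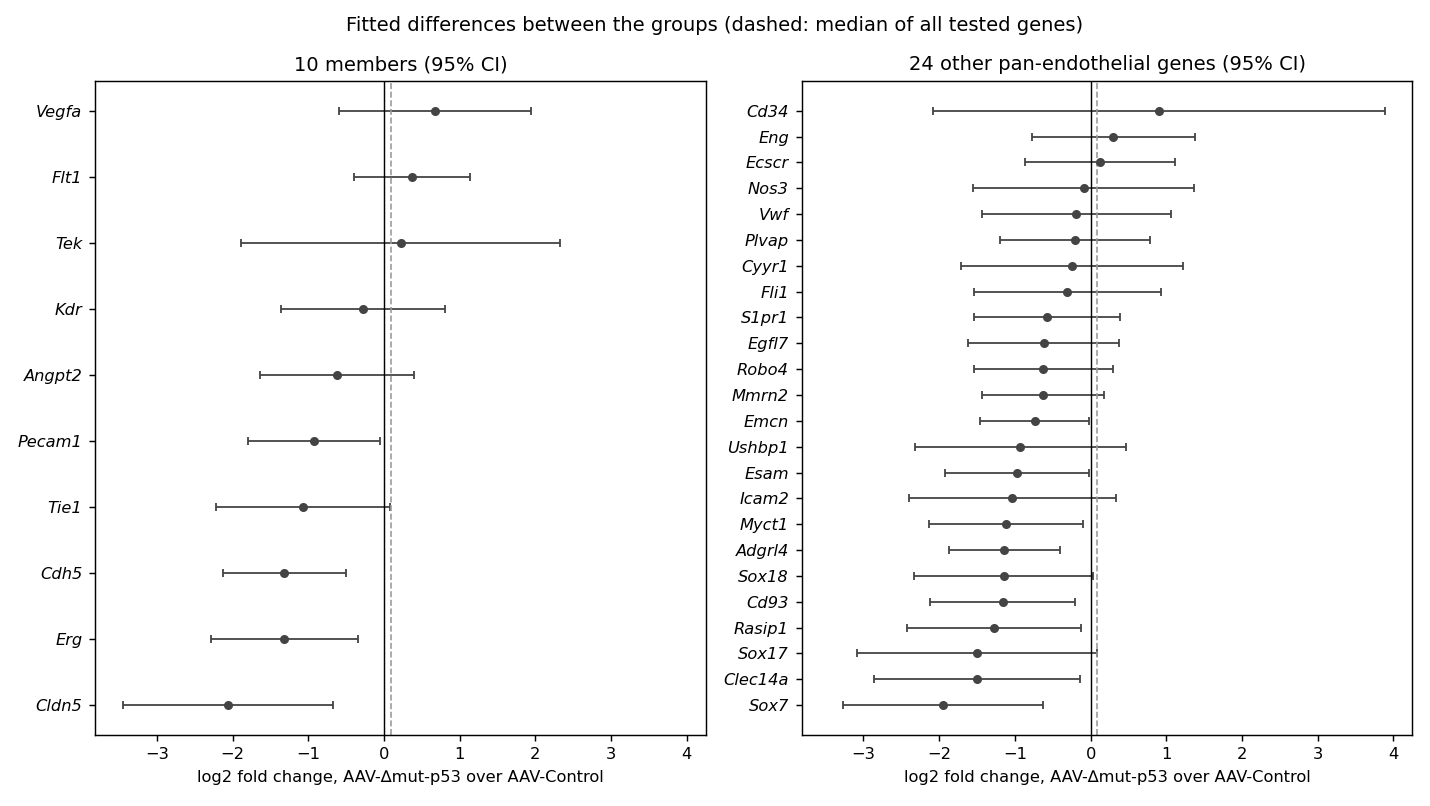
Log2 fold change of AAV-∆mut-p53 over AAV-Control with 95% confidence intervals from edgeR, for the 10 members (left) and 24 other pan-endothelial genes (right). The dashed line is the median of all tested genes (0.09). The intervals of Cdh5, Pecam1, Cldn5 and Erg lie below 0, before any adjustment for the number of genes, while those of Vegfa, Flt1, Tek, Kdr, Angpt2 and Tie1 cross it.

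Set per kilobase of exon, for a rough comparison between genes, the order of levels was led by Vegfa and Cdh5 in both groups. The length used joins all annotated exons of a gene, from 1.42 kilobases for Cldn5 to 13.5 for Flt1. It need not be the length of the transcript made, and the order depends on it. In AAV-∆mut-p53 tumours Vegfa averaged 45.8 ± 27.4 and Cdh5 12.4 ± 4.72 CPM per kilobase (SD, n = 6). Pecam1 (8.89 ± 4.02), Angpt2 (8.47 ± 4.03), Kdr (4.64 ± 3.15), Flt1 (3.95 ± 1.44), Tek (3.80 ± 5.11), Cldn5 (3.78 ± 2.23), Tie1 (2.56 ± 1.23) and Erg (1.67 ± 0.80) followed on the same scale. Apart from Vegfa and Cdh5, the mean ± SD of each neighbouring pair in that order overlapped. In AAV-Control tumours Cdh5 averaged 30.8 ± 11.5 and Vegfa 28.7 ± 15.2 CPM per kilobase (SD, n = 3). Next on that scale came Pecam1 (16.9 ± 6.16), Cldn5 (15.8 ± 14.6), Angpt2 (12.97 ± 6.24), Kdr (5.62 ± 1.53), Tie1 (5.35 ± 3.30), Erg (4.18 ± 0.60), Tek (3.26 ± 2.01) and Flt1 (3.06 ± 0.40), and all neighbours overlapped. Cldn5 was in place 8 in AAV-∆mut-p53 tumours and 4 in AAV-Control tumours, and Flt1 in place 6 and 10.

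The endothelial members varied by tumour as well as by group. Summed over the 8 endothelial members, AAV-∆mut-p53 numbers 1 to 6 held 159, 362, 164, 148, 394 and 238 CPM, and AAV-Control 1 to 3 held 548, 401 and 267 CPM. Numbers 5 and 2 thus lay above AAV-Control 3, and number 5 just under AAV-Control 2. AAV-Control 1 was the highest of the 9 tumours for 5 of the 8 genes, number 5 for Kdr, number 2 for Tek and number 6 for Flt1. Numbers 1, 3 and 4 held the lowest value of every one of the 8 genes between them. Number 5 was among the 3 highest tumours for 6 of the 8 genes, as were AAV-Control 1 and 2.

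**Figure D3:**
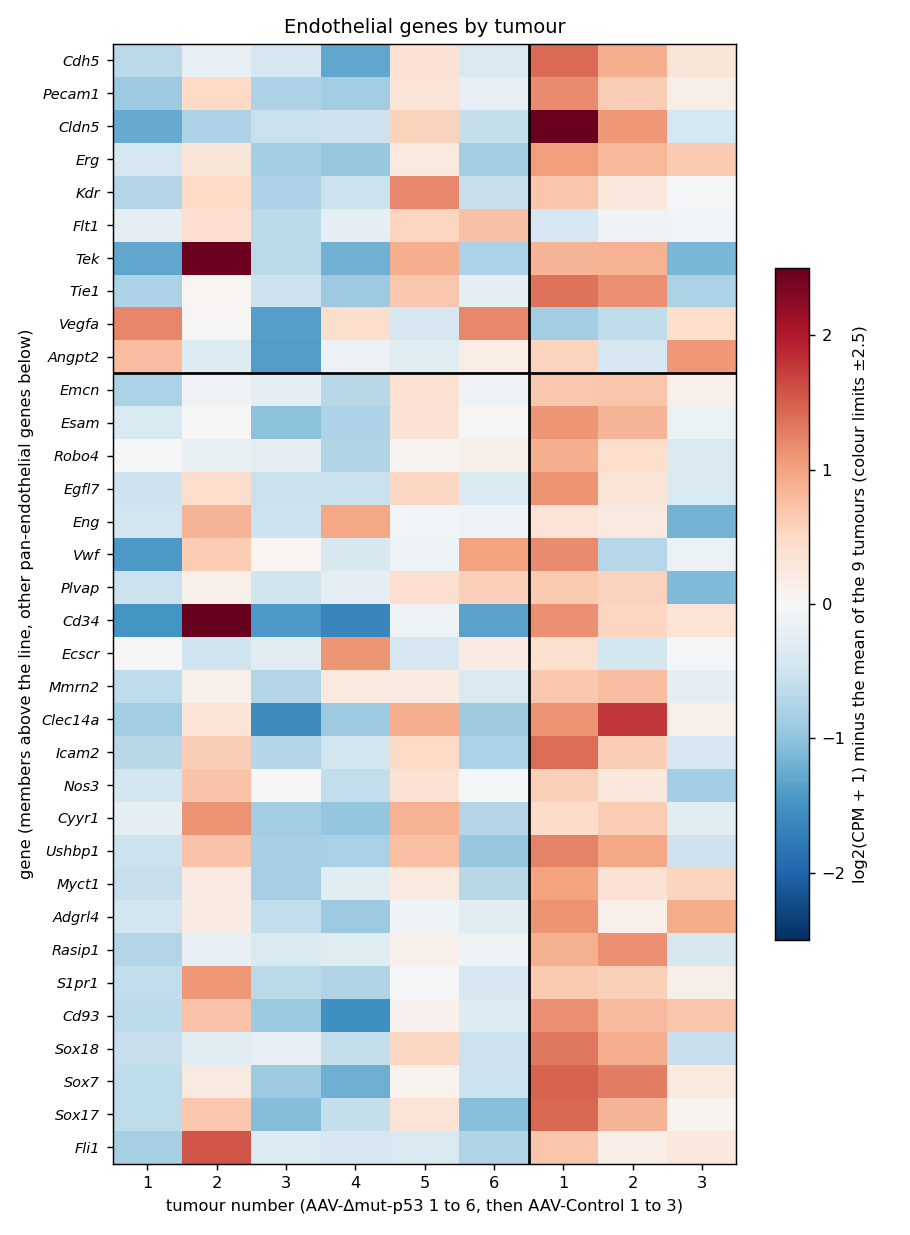
Level of each gene in each tumour as log2(CPM + 1) minus that gene's mean over the 9 tumours, with members above the line and 24 other pan-endothelial genes below, and colours limited at ±2.5. AAV-∆mut-p53 numbers 2 and 5 and AAV-Control 1 and 2 are red for most rows, while numbers 1, 3, 4 and 6 are blue for most. Tek and Cd34 are highest in number 2, at 65.1 and 1571 CPM.

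Members were also set against each other within each tumour, as the difference of their log2(CPM + 1), for 8 pairs. The Flt1 to Cdh5 log2 ratio averaged 0.04 ± 0.53 (SD, n = 6) in AAV-∆mut-p53 tumours and -1.56 ± 0.73 (SD, n = 3) in AAV-Control tumours. Every AAV-∆mut-p53 tumour lay above every control (exact 2-sided permutation p = 0.0119, the smallest the design allows; adjusted p = 0.0952 over the 8 ratios). The Kdr to Cdh5 log2 ratio averaged -0.44 ± 0.54 (SD, n = 6) and -1.30 ± 0.18 (SD, n = 3) in AAV-∆mut-p53 and AAV-Control tumours, without overlap although number 3 at -1.08 and AAV-Control 3 at -1.09 nearly met (exact permutation p = 0.0238; adjusted p = 0.0952). Neither passed 0.05 after adjustment.

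Since Cdh5 itself had a lower mean, most genes stood higher against it. Of all other tested genes, 26.4% had a ratio to Cdh5 in which every AAV-∆mut-p53 tumour lay above every control, and their median difference was 1.33 on the log2 scale. The difference was 1.60 for Flt1 and 0.86 for Kdr, so Kdr stood lower than the median gene. Of the 31 other endothelial genes measured here (7 members and 24 further genes), 27 had a higher mean ratio to Cdh5 and 8 had no overlap, with a median difference of 0.52. Those 8, named after their values were seen, were Kdr, Flt1, Emcn, Robo4, Egfl7, Eng, Plvap and Nos3.

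The remaining ratios overlapped between groups. Tek to Cdh5 differed by 1.03 (exact permutation p = 0.262), Angpt2 to Cdh5 by 0.70 (exact p = 0.333), Flt1 to Kdr by 0.74 (exact p = 0.155) and Vegfa to Kdr by 0.99 (exact p = 0.345), all higher in AAV-∆mut-p53 tumours and with an adjusted p of at least 0.413. Cldn5 to Cdh5 differed by -0.24 and Angpt2 to Tek by -0.32. The sign of the Cldn5 to Cdh5 difference turned without AAV-Control 1, and that of Angpt2 to Tek without number 2 or AAV-Control 3. The plot of ratios shows the Vegfa to Kdr log2 ratio running from 0.19 in number 5 to 3.79 in number 1, with AAV-Control tumours at 0.25, 0.93 and 2.33.

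**Figure D4:**
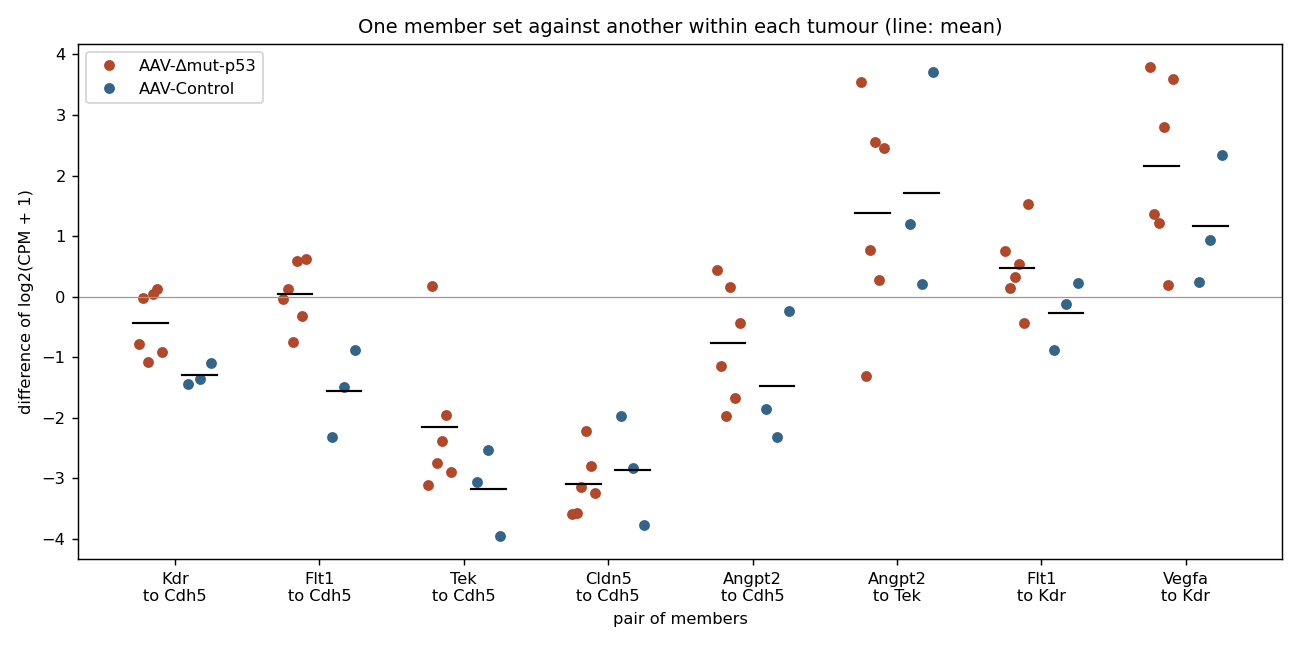
Difference of log2(CPM + 1) between 2 members of the same tumour, for 8 pairs, with AAV-∆mut-p53 tumours (red) left of AAV-Control tumours (blue) and a line at each group's mean. For Flt1 to Cdh5 and Kdr to Cdh5 every red point lies above every blue one. The other pairs overlap.

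Across the 9 tumours, Cdh5, Pecam1, Cldn5, Erg, Kdr, Tek and Tie1 were positively related to each other in every pair (r from 0.43 to 0.90), while Flt1 was near 0 with several of them. Among the 45 pairs of members, 9 passed a Pearson correlation of log2(CPM + 1) with an exact permutation p adjusted over the 45 pairs below 0.05. The closest pair was Cdh5 and Pecam1 (r = 0.90, exact permutation p = 0.00116, adjusted p = 0.0212; Spearman's rho = 0.93, exact p = 0.00075, adjusted p = 0.0337). It was also the 1 pair that passed by Spearman's rho. Cdh5 and Erg had r = 0.89 (adjusted p = 0.0212 by exact permutation; rho = 0.88, adjusted p = 0.0692), and without the 2 tumours farthest from the median of Cdh5 their r was 0.79. The same step gave 0.78 for Cdh5 and Pecam1 and 0.55 for Cdh5 and Cldn5, whose r over 9 tumours was 0.86.

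Cldn5 and Tie1, whose promoters stand above, had r = 0.88 (adjusted p = 0.0212 by exact permutation), but rho was 0.53 (exact p = 0.148). These correlations include the difference between groups. Within the 6 AAV-∆mut-p53 tumours alone, r was 0.77 for Cdh5 and Pecam1 (exact p = 0.0583), 0.71 for Cdh5 and Erg (exact p = 0.104), 0.93 for Cdh5 and Tie1 (exact p = 0.00417), and 0.75 for Cldn5 and Tie1 (exact p = 0.101), all unadjusted. The 3 AAV-Control tumours are too few for a value of their own.

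Flt1 had r between -0.18 and 0.35 with the other 7 endothelial members over the 9 tumours. Vegfa was negatively related to 7 of the 8 endothelial members, with r from -0.60 for Cldn5 to -0.36 for Erg, and positively to Flt1 (r = 0.48), none of which passed (adjusted p of at least 0.198 by exact permutation). Vegfa and Angpt2 had r = 0.63 over the 9 tumours (exact p = 0.0688, adjusted p = 0.163; rho = 0.67, exact p = 0.0589). Within the 6 AAV-∆mut-p53 tumours their r was 0.94 (exact p = 0.00417, unadjusted). Over the 9 without the 2 tumours farthest from the median of Vegfa it was 0.21, a step that also narrows the range of Vegfa. With any 1 tumour left out, r over the rest ran from 0.39 to 0.82.

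**Figure D5:**
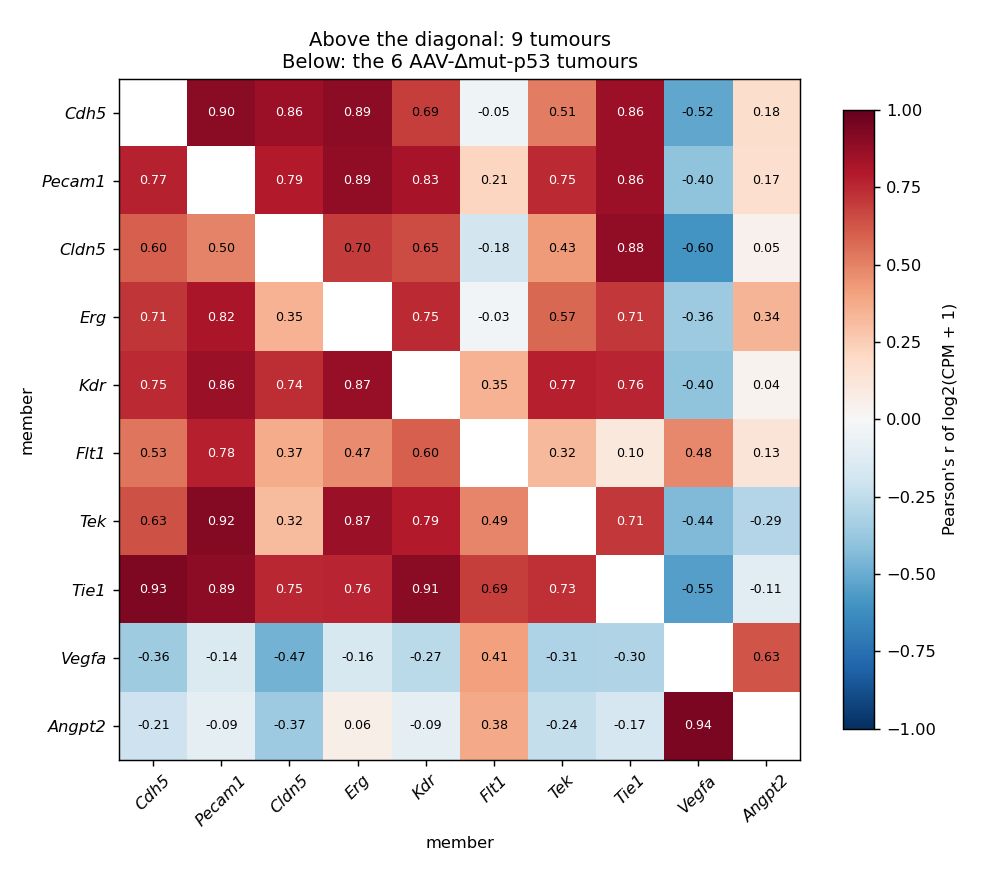
Pearson's r of log2(CPM + 1) between members, over the 9 tumours above the diagonal and within the 6 AAV-∆mut-p53 tumours below it. Cdh5, Pecam1, Cldn5, Erg, Kdr, Tek and Tie1 form a positive block above the diagonal (Cdh5 with Pecam1 0.90), Flt1 stands near 0 with several of them, and Vegfa is negative with all of these but Flt1.

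Outside the 10 members, the genes whose pattern over the 9 tumours was most like that of Cdh5 were taken by Pearson's r of log2(CPM + 1) among 13867 genes, as a description. They were She (r = 0.96), Sox7 (0.95), Emcn (0.94), Aatk (0.93), Zcwpw1 (0.93), Cit (0.93), Tal1 (0.92), Rassf8 (0.92), Msi1 (0.92) and Tmem215 (0.91). Sox7 is a SOX factor of endothelium, Emcn encodes the endothelial glycoprotein endomucin, and Tal1 encodes a factor of blood and endothelial precursors. Emcn held 14.1, 23.6, 21.5, 15.2, 33.2 and 23.6 CPM in AAV-∆mut-p53 numbers 1 to 6 and 40.9, 41.1 and 27.5 CPM in AAV-Control 1 to 3, the same high tumours as Cdh5. Cit (citron kinase, of cell division) and Msi1 (an RNA-binding protein) are not endothelial markers.

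A list of 24 other pan-endothelial genes, likewise chosen with earlier results known, was read beside the members. All 24 were tested, 21 had a fitted change below 0 and 3 above it, with a median log2 fold change of -0.68, beside 44.4% of all tested genes below 0. At an unadjusted p below 0.05, 8 were lower and 0 higher, where 3.26% of all tested genes were lower, and 0 passed the FDR. Left without AAV-∆mut-p53 number 1, 3, 4 or 6 in turn, the count of 8 was 3, 3, 3 or 4, and without AAV-Control 1 or 2 it was 2 or 4. The median was -0.50 without AAV-Control 1 and -1.01 without number 2. Adgrl4, an adhesion receptor of angiogenic endothelium, had the smallest p, at 20.3 ± 5.87 CPM (SD, n = 6) in AAV-∆mut-p53 and 44.6 ± 15.0 CPM (SD, n = 3) in AAV-Control tumours (log2 fold change -1.14, edgeR FDR = 0.677). Sox7 was 1.74 ± 1.08 and 6.75 ± 3.07 CPM in the same order (log2 fold change -1.95, edgeR FDR = 0.677). Sox7 and Myct1 were the 2 genes of this list with every AAV-∆mut-p53 tumour below every control, beside 1.59% of all tested genes. Myct1 was named after its values were seen.

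Among 10 VEGF ligands, receptors and co-receptors, 7 had a higher mean and 3 a lower one, with 0 at an unadjusted p below 0.05 and a median log2 fold change of 0.19. Nrp1, a co-receptor for VEGF-A, was 76.5 ± 58.1 CPM (SD, n = 6) in AAV-∆mut-p53 and 53.8 ± 4.46 CPM (SD, n = 3) in AAV-Control tumours. Pgf, a ligand of FLT1, was 38.4 ± 26.3 and 50.8 ± 22.9 CPM in those groups. In the angiopoietin and TIE list, 3 of 6 genes had a higher mean. Angpt1, which activates TIE2, held 1.44 CPM in AAV-∆mut-p53 number 1, between 14.0 and 21.8 CPM in numbers 2 to 6, and 4.11, 3.57 and 9.19 CPM in AAV-Control 1 to 3. Its log2 fold change was 1.40 (edgeR FDR = 0.677). Ptprb, the endothelial phosphatase that restrains TIE2, was 35.1 ± 18.4 and 43.5 ± 7.49 CPM.

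Of 16 endothelial transcription factors, 7 had a higher and 9 a lower mean. Beside Erg and Sox7 on the lower side, both already counted above, Ets1 and Klf4 had an unadjusted p below 0.05 on the higher side. Klf4 was named after its values were seen. At that p 3.26% of all tested genes were lower and 3.82% higher. Ets1, an ETS factor also active in lymphocytes and carcinoma cells, was 197 ± 79.9 CPM (SD, n = 6) in AAV-∆mut-p53 and 93.2 ± 26.5 CPM (SD, n = 3) in AAV-Control tumours (log2 fold change 1.08, edgeR FDR = 0.677). Of 11 junction genes, 6 were lower, and the 4 with an unadjusted p below 0.05 were Cdh5, Pecam1, Cldn5 and Esam, beside the same 3.26%. All 4 were already counted above, so this list repeats those results. Esam, an adhesion molecule, was 10.2 ± 3.91 and 20.1 ± 8.49 CPM. Ctnnb1, which encodes beta-catenin of epithelium and endothelium alike, was 836 ± 635 and 508 ± 170 CPM. Of 11 Notch pathway genes 8 were lower, beside 44.4% of all tested genes, with 0 at that p. Dll4, the Notch ligand of sprouting and arterial endothelium, was 4.77 ± 1.98 and 9.94 ± 5.03 CPM, and the endothelial receptor Notch4 was 9.87 ± 2.55 and 17.5 ± 9.07 CPM.

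Lists of vessel subtypes were short, and differences between them were not tested. Over all tested genes 44.4% had a fitted change below 0. Of 7 capillary genes 6 were lower, with Gpihbp1, the capillary anchor of lipoprotein lipase, at 18.7 ± 9.66 CPM (SD, n = 6) in AAV-∆mut-p53 and 49.7 ± 25.1 CPM (SD, n = 3) in AAV-Control tumours (log2 fold change -1.41, edgeR FDR = 0.677). Of 8 arterial genes 5 were lower. Bmx, a kinase of arterial endothelium that other cells also use, was the 1 of them with every AAV-∆mut-p53 tumour above every control, beside 1.47% of all tested genes. It held 36.1 CPM in number 1 and low levels, 0.71 to 3.14 CPM, in the other AAV-∆mut-p53 tumours, against 0.32 to 0.56 CPM in the controls. Of 7 venous and activation genes tested, 4 were higher, among them Selp (P-selectin; 1.41 ± 1.59 and 0.56 ± 0.30 CPM) and Icam1 (49.97 ± 77.6 and 21.8 ± 5.55 CPM), with 0 at an unadjusted p below 0.05. Of 6 lymphatic genes tested, 3 were higher. Mmrn1 was 4.54 ± 2.38 and 1.51 ± 0.95 CPM, and Pdpn, which tumour and stromal cells also make, was 97.2 ± 67.5 and 258 ± 63.5 CPM. For Pdpn every AAV-∆mut-p53 tumour lay below every control, beside 1.59% of all tested genes. Number 5 at 188 CPM and AAV-Control 1 at 191 CPM nearly met. Of the 8 genes of the BMP9 and TGF-beta axis 5 were higher, with 0 at that p, and Smad7, an inhibitor of the pathway, was 19.0 ± 6.61 and 10.98 ± 1.95 CPM. Tip cell genes were 5 higher and 7 lower of 12, with 0 at an unadjusted p below 0.05.

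Genes of low oxygen were read beside Vegfa, which they accompany in hypoxic tissue. Of 15 hypoxia response genes 11 had a higher mean in AAV-∆mut-p53 tumours and 4 a lower one, beside 44.4% of all tested genes below 0. Their median log2 fold change was 0.59. At an unadjusted p below 0.05, 2 were higher and 0 lower, where 3.82% of all tested genes were higher and 3.26% lower. Hk2, a hexokinase, was 85.0 ± 28.1 CPM (SD, n = 6) in AAV-∆mut-p53 and 42.9 ± 20.8 CPM (SD, n = 3) in AAV-Control tumours, and Pfkfb3, a driver of glycolysis, 60.6 ± 39.0 and 23.96 ± 5.19 CPM (edgeR FDR = 0.677 for each). The 15 genes summed to 1772, 1879, 1222, 1373, 667 and 3699 CPM in numbers 1 to 6 and 754, 954 and 1434 CPM in AAV-Control 1 to 3. Ndrg1 and Ldha were the largest parts of the sum in number 6 (1350 and 1029 CPM) and number 1 (702 and 405 CPM). The order of these sums thus leans on abundant genes. Number 6, highest for this sum, held 333 CPM of Vegfa, while number 1 held the highest Vegfa level, 338 CPM. Number 2, next highest for the sum, held 148 CPM of Vegfa, and number 3 held the lowest Vegfa level of all (54.8 CPM) without having the lowest sum, which was in number 5. AAV-Control 3 was the highest control for both. Of 7 HIF regulators 5 were higher, with 0 at an unadjusted p below 0.05, among them Egln1 (64.4 ± 27.8 and 46.0 ± 9.63 CPM). Of 8 angiogenesis inhibitors 4 were higher, and Thbs1, which encodes the secreted inhibitor thrombospondin-1, was 746 ± 505 and 213 ± 24.9 CPM (log2 fold change 1.81, edgeR FDR = 0.677). Cxcl10, an interferon-induced chemokine that can limit vessel growth, was 8.55 ± 5.41 and 1.93 ± 0.13 CPM.

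Marker lists of other cells were read for whether they moved with the endothelial members, and their part in the differences was not tested. The share of all tested genes with a fitted change below 0 was 44.4%. Pericyte and smooth muscle genes were 8 lower and 3 higher of 11, and summed to between 308 and 2637 CPM in AAV-∆mut-p53 and between 1409 and 3516 CPM in AAV-Control tumours. Rgs5, a pericyte gene, was 104 ± 38.7 CPM (SD, n = 6) in AAV-∆mut-p53 and 197 ± 49.8 CPM (SD, n = 3) in AAV-Control tumours. Myh11, of the same list, was 37.9 ± 38.3 and 238 ± 185 CPM (edgeR FDR = 0.677 for each). Myh11 did not follow the endothelial members among the controls. It was 26.7 CPM in AAV-Control 1, the highest tumour for 5 of the 8 endothelial members, and 311 and 375 CPM in AAV-Control 2 and 3. Rgs5 was 218, 140 and 233 CPM in AAV-Control 1 to 3. Fibroblast genes summed to between 790 and 16965 CPM and between 761 and 7189 CPM in the same groups, and erythroid genes to between 98.9 and 440 CPM and between 207 and 1195 CPM, where AAV-Control 3 was highest. All 7 leukocyte genes tested had a higher mean, with sums of 264 to 2354 CPM in AAV-∆mut-p53 and 379 to 616 CPM in AAV-Control tumours. All 6 muscle genes were higher, by sums of 21.8 to 36804 CPM against 49.4 to 132 CPM. Adipocyte genes summed to 17.1 to 468 CPM and 64.4 to 152 CPM, epithelial genes to 181 to 5041 CPM and 1424 to 2080 CPM, and platelet genes to 5.37 to 49.9 CPM and 8.12 to 15.3 CPM. AAV-∆mut-p53 number 2 held the highest sum of its group for fibroblast, erythroid, leukocyte, muscle, adipocyte and platelet genes and the lowest for epithelial genes. Median sums in AAV-∆mut-p53 and AAV-Control tumours were 557 and 461 CPM for leukocyte genes and 162 and 131 CPM for muscle genes. The counts of higher means were not repeated without number 2. In none of these lists was a gene at 0 counts in all 9 tumours. The endothelial markers themselves were present in every tumour, with at least 473 counts of Cdh5 and 619 of Pecam1.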

How the data were processed

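Libraries were made from total RNA of flash-frozen tumours with a stranded kit, per the labels' protocols. The authors deposited 1 table of raw counts per Ensembl gene. The submitters' processing notes name STAR 2.6.0b, DESeq2 and the GRCm38 build. The counter, its strand setting and its annotation are not stated. Symbols were found for 49326 of 49585 identifiers, and positions and exon lengths came from GENCODE M21 on GRCm38. Genes kept by filterByExpr in edgeR 4.0.16 (minimum count 10, R 4.3.3) were tested without covariates by the quasi-likelihood test with TMM factors, adjusted over all 19606 genes. Log2 fold changes are AAV-∆mut-p53 over AAV-Control. Single values were compared by exact 2-sided permutation of log2(CPM + 1) over 84 assignments. DESeq2 1.42.0 and limma 3.58.1 were alternatives. No pair of libraries was alike within sampling noise (chi-square per degree of freedom at least 117). The fit was tested on simulated counts of 19158 genes.

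The members and gene lists were chosen with earlier results of these data known. Besides the members and Trp53, the genes named are the 2 tested genes with the smallest p of each of the 23 other lists, of which the text gives a part, the 10 genes most like Cdh5 by r at a mean of at least 1 CPM, and genes said to be named after their values were seen. RefSeq promoters on GRCm38.p6 were searched for motifs. Each tumour was left out in turn, other scaling and filters were tried, and 375 alternative values were computed in all.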

Additional observations from a re-analysis of the deposited data

Results flagged for a closer look

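Within the 6 AAV-∆mut-p53 tumours, 18 quantities (10 members and 8 ratios) were examined for a tumour far from the others, by whether its gap to the nearest tumour exceeded 0.625 of the whole range. Chance alone flags about 1 in 20 such groups if the values follow a normal curve, and 3 were found. The members were examined in CPM rather than on the log2 scale, so that rate need not hold for them. Both flags that involve Tek rest on the same Tek value. Cldn5 was 11.6 CPM in number 5, the highest, with the other 5 tumours at no more than 4.86 CPM. Tek was 65.1 CPM in number 2, where the next highest was number 5 at 21.6 CPM. The Tek to Cdh5 log2 ratio was 0.17 in number 2, and the other 5 tumours lay between -3.11 and -1.95.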

How the results depend on the processing

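No paired analysis was possible because the labels give the tumours no shared replicate numbers. Of 375 alternative values, 358 kept their direction and their side of the threshold or stayed close to the reported value, 7 reversed and 10 moved. No member or ratio passed the threshold as reported, so a value that shrank but kept its sign was counted as kept. Without AAV-Control 1, for example, Cldn5 went from -2.06 to -1.04 and Kdr from -0.28 to -0.054. Cdh5, Pecam1, Cldn5, Erg, Kdr, Tie1 and Angpt2 stayed negative and Flt1 and Vegfa positive under every alternative run. Tek, 0.22 as reported, was -0.93 with limma voom and ran from -0.86 to 0.50 with 1 tumour left out. With 1 left out, Cldn5 to Cdh5 ran from -0.69 to 0.21 and Angpt2 to Tek from -1.07 to 0.68, and Cldn5 to Cdh5 was 0.089 with log2(CPM + 5). No gene passed the FDR except with DESeq2 (104). Genes at an unadjusted p below 0.05 numbered 1387, 2443 with no filter on low counts, and 874 to 2009 with 1 tumour left out. Members at that p numbered 4, and 2 to 5 with 1 left out, the lowest without AAV-Control 1. Chosen after seeing the data, the same step gave 2 to 11 of the 24 other pan-endothelial genes, 8 as reported. The causes were not tested. At this depth and spread, an FDR above 0.05 does not show equal levels.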
